A study of Mus musculus with 8 samples.

Results

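The genes of the troponin complex and of tropomyosin were examined in RNA-seq libraries of mouse hearts that had lost the RNA methyltransferase Mettl3 in cardiomyocytes. The 10 genes were taken by gene symbol from the 23045 genes of the table: Tnnt2, Tnni3, Tnnc1 and Tpm1, which make up the adult cardiac set, Tnni1 and Tnnt1 of slow skeletal muscle, Tnni2 and Tnnt3 of fast skeletal muscle, and the tropomyosin genes Tpm2 and Tpm3. METTL3 is the catalytic subunit of the complex that places N6-methyladenosine on RNA. Control mice (called WT, 4 libraries) had both copies of Mettl3 flanked by loxP sites (Mettl3lox/lox), and Mettl3 KO mice (4 libraries) had the same floxed alleles plus αMHC-MerCreMer, a Cre recombinase that the α-myosin heavy chain promoter drives in cardiomyocytes and that tamoxifen activates. Per the study's methods, mice of both genotypes were 10 to 16 weeks old and were given tamoxifen into the peritoneum on 7 days in a row, at 100 µg per g body weight. The controls lacked the MerCreMer transgene, so the loss of Mettl3 and the presence of the recombinase cannot be told apart, and the time between tamoxifen and sampling and the sex of the animals were not given. RNA came from heart tissue and not from sorted cells, so fewer cells of a type and less RNA per cell cannot be told apart. The paper's methods do not state which parts of the heart were taken for these libraries. The labels do not say which libraries came from separate animals, so p-values measure the spread between these libraries only.

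Troponin and tropomyosin are the calcium switch of the striated muscle thin filament. Troponin C binds calcium, troponin I holds actin and myosin apart at low calcium, troponin T anchors both to tropomyosin, and the tropomyosin strand moves on actin to open or close the sites where myosin binds. Each part is made from a family of genes. The fetal heart makes slow skeletal troponin I (Tnni1) and replaces it with cardiac troponin I (Tnni3) around birth, slow skeletal and cardiac muscle share troponin C (Tnnc1), and Tpm1 is the main tropomyosin gene of the adult mouse ventricle. The comparison therefore asks 2 questions, whether the level of the adult cardiac set differed between the genotypes, and whether its fetal or skeletal counterparts did.

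The coding starts of the troponin I genes are given because they show the part by which the adult cardiac form differs from the others. The first 120 coding bases were read from the GRCm38 transcripts of GENCODE M21, 5′ to 3′ on the strand of the gene. Capitals mark the 96 bases, 32 codons, at the start of Tnni3 that had no counterpart in Tnni1 when the whole coding sequences were aligned.

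Tnni3: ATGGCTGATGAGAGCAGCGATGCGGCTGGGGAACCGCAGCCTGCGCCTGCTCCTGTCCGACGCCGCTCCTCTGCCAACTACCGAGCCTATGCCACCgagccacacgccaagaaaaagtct

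Tnni1: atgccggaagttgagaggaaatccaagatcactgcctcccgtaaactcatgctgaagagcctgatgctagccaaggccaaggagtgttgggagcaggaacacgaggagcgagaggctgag

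Tnni2: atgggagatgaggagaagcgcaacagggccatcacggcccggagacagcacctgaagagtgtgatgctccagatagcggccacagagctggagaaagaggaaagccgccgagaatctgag

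This extension of cardiac troponin I carries the serines that protein kinase A phosphorylates, and the skeletal forms lack it. The coding sequences, without the stop codon, hold 211 codons in Tnni3, 187 in Tnni1 and 182 in Tnni2. Where they aligned, Tnni3 was identical to Tnni1 at 67.0% of 533 bases and to Tnni2 at 68.2% of 522 bases, and Tnni1 was identical to Tnni2 at 71.0% of 531 bases. No stretch of 72 bases, the length of the reads, was shared between the troponin I genes or with any other gene, apart from 15 stretches that Tnni3 shares with its neighbour Dnaaf3.

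Levels are normalized read counts, whole numbers to which the authors scaled the reads of each library. They summed to 2839589 to 2916986 per library and stood for about 2631904 to 3061268 reads, recovered from the spacing of the low values, and a floor of 3 reads, the limit that a count of 0 allows, came to a value of 2.78 to 3.33. Intervals and floors from reads cover counting error only. The targeted gene Mettl3 had values of 105, 133, 118 and 107 in WT libraries 1 to 4 and of 74, 68, 69 and 78 in Mettl3 KO libraries 1 to 4, 62.4% of the WT mean, and Esr1, whose sequence is part of MerCreMer, had 13 to 20 in WT and 693 to 851 in Mettl3 KO libraries. Of 7 cardiomyocyte markers only Ryr2 was called, lower in Mettl3 KO hearts, while 7 of 8 fibroblast markers and 5 of 6 atrial markers were called higher and 3 of 6 endothelial markers lower. The cardiomyocyte markers Myl3, Pln, Myl2, Myh6 and Actc1 held 0.846 to 0.895 reads per base of the longest coding transcript. This is near a ceiling set by duplicate removal, described further on, which limits what their values can register. The summed level of the fibroblast markers was 3493 to 3883 in WT and 4398 to 5060 in Mettl3 KO libraries, that of the endothelial markers 3703 to 3907 and 3204 to 3500, that of the atrial markers 218 to 474 and 637 to 1423, and that of the cardiomyocyte markers 22039 to 23091 and 20375 to 23008. Nppa held 452 of the atrial sum of 637 in Mettl3 KO library 1. In that library Myl7 (23), Myl4 (113), Sln (10) and Bmp10 (0) lay within their WT ranges, 0 to 26, 17 to 114, 0 to 12 and 0. Ryr2 made up 9666 to 10427 of the cardiomyocyte sums in WT and 7975 to 9017 in Mettl3 KO libraries. The other 6 cardiomyocyte markers had log2 fold changes above 0, and none of these was called. The part of these markers in the results below was not tested.

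The adult cardiac set was present at high levels in both genotypes, and none of its 4 genes was called by limma or by limma voom. However, duplicate removal limits what the values of Tnni3 and Tnnc1 can register, and may limit those of Tnnt2 and Tpm1, as described further on. All 10 genes passed the filter of a mean value of at least 1 and were fitted with limma on log2(value + 1) together with all other genes, 20313 in total, with Benjamini-Hochberg adjustment over all of them. Of the 10 genes 1 was called at an adjusted p under 0.05, Tnni2, which was lower in Mettl3 KO hearts. Over all genes tested 7.91% were called and 3.19% were called lower. The values of the genotypes overlapped in all 10 genes, while they did not overlap in 11.5% of all genes tested. An unadjusted p under 0.05 was found for 2 of the 10 genes, Tnni2 and Tnnt2, and in limma voom also for Tpm1. The median log2 fold change was 0.035 over the 10 genes and -0.01 over all genes.

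**Figure D1:**
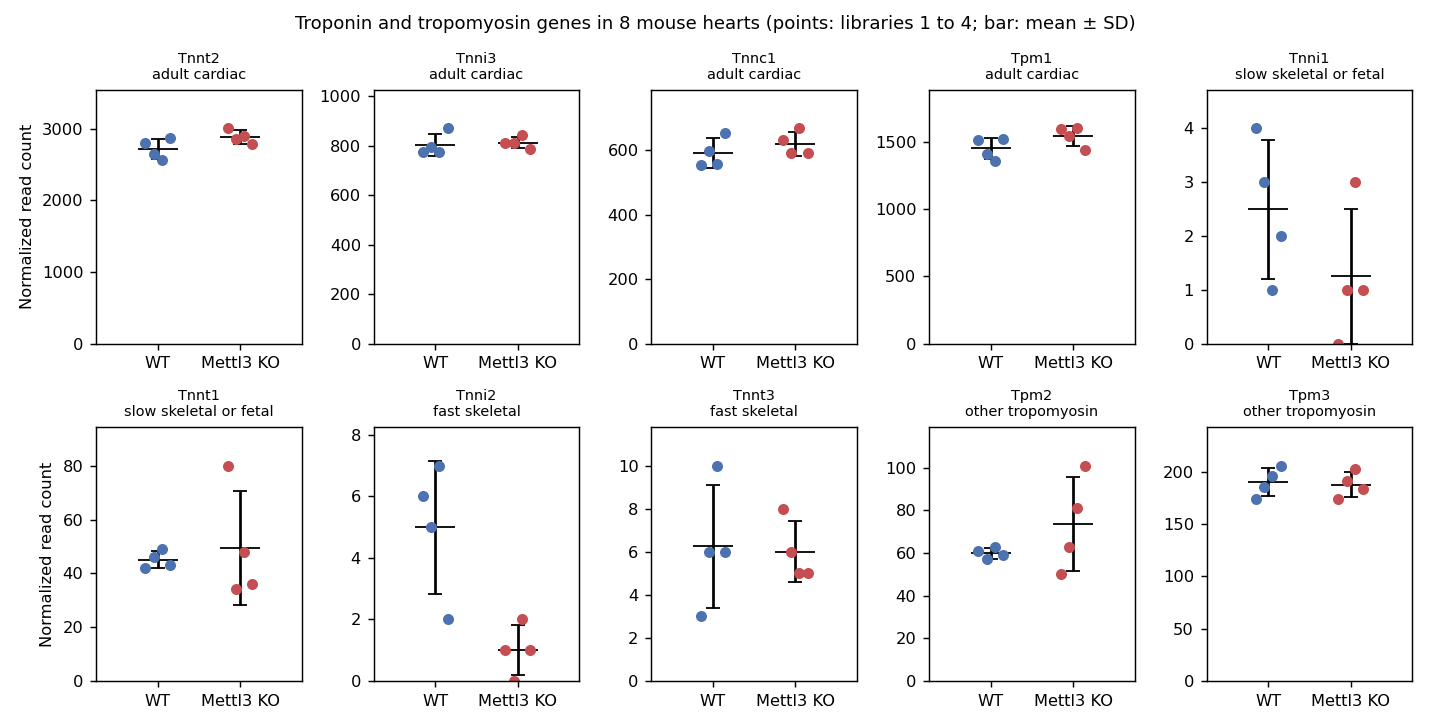
Normalized read count (vertical axis, from 0, a scale of its own in each panel) of the 10 genes in 4 WT (blue) and 4 Mettl3 KO (red) heart libraries, each point 1 library in the order 1 to 4 and the black bars mean ± SD. The values of the genotypes overlap in every panel, the Mettl3 KO libraries of Tpm2 and Tnnt1 spread more widely than the WT libraries, and those of Tnni2 lie at 0 to 2.

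Tnnt2 (ENSMUSG00000026414, mm39 chromosome 1, 135764092 to 135779998, plus strand) encodes cardiac troponin T, the subunit that ties the complex to tropomyosin, and had the highest normalized read counts of the 10 genes. Its values were 2797, 2642, 2566 and 2872 in WT libraries 1 to 4 and 3003, 2854, 2901 and 2780 in Mettl3 KO libraries 1 to 4, or 2719 ± 140 and 2884 ± 93.4 (mean ± SD, n = 4 each). Mettl3 KO library 1 was the highest of all and 2 WT libraries lay below every Mettl3 KO library, but the other WT libraries fell among them. The log2 fold change was 0.086 (SE 0.038, 95% interval 0.0074 to 0.16), which did not pass adjustment over all genes (limma adjusted p = 0.192, unadjusted p = 0.0334).

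Tnni3 (ENSMUSG00000035458, mm39 chromosome 7, 4521304 to 4527228, minus strand) encodes cardiac troponin I, the inhibitory subunit. Its values were 777, 795, 777 and 871 in WT libraries 1 to 4 and 813, 811, 844 and 786 in Mettl3 KO libraries 1 to 4, or 805 ± 44.8 and 814 ± 23.8 (mean ± SD, n = 4 each). The Mettl3 KO values lay entirely within the range of the WT values. Mettl3 KO and WT hearts differed by a log2 fold change of 0.016 (95% interval -0.080 to 0.11, SE 0.047, adjusted p in limma 0.908), and its sign turned with the scaling, to -0.0030 with equal upper quartiles. Where Dnaaf3 overlaps the gene on the same strand, reads were counted for neither, since reads over several genes were dropped.

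Tnnc1 (ENSMUSG00000091898, mm39 chromosome 14, 30930269 to 30933686, plus strand) encodes the troponin C of cardiac and slow skeletal muscle, the calcium sensor of the complex. It had values of 554, 598, 557 and 653 in WT libraries 1 to 4 and of 632, 591, 668 and 590 in Mettl3 KO libraries 1 to 4, or 590 ± 46.2 and 620 ± 37.4 (mean ± SD, n = 4 each). The values of the genotypes were interleaved, with the highest in Mettl3 KO library 3 and the next in WT library 4. This gave a log2 fold change of 0.072 (95% interval -0.047 to 0.19, SE 0.057, adjusted p in limma 0.545). It was 0.036 without Mettl3 KO library 3 and 0.12 without WT library 4, with no call in either. Nisch spans the gene on the opposite strand, and the libraries were stranded and counted by strand. Tnnc2, the troponin C of fast skeletal muscle, had values of 0 to 2 and was not tested.

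Tpm1 (ENSMUSG00000032366, mm39 chromosome 9, 66929872 to 66956688, minus strand) encodes α-tropomyosin. Its values were 1509, 1407, 1360 and 1523 in WT libraries 1 to 4 and 1592, 1542, 1599 and 1437 in Mettl3 KO libraries 1 to 4, or 1450 ± 79.1 and 1542 ± 74.8 (mean ± SD, n = 4 each). Of the Mettl3 KO libraries 3 lay above every WT library, and the fourth fell among them. On the log2(value + 1) scale the difference was 0.090 (95% interval -0.0022 to 0.18, SE 0.044, adjusted p in limma 0.257). The intervals of Tnnt2, Tnni3, Tnnc1 and Tpm1 ran from -0.080 at the lowest to 0.19 at the highest, so the deposited values of none of the 4 allow a fall below 0.946 of the WT level or a rise above 1.14 of it at 95% confidence, each gene taken alone. These limits do not extend to the reads before duplicate removal, as described next.

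**Figure D2:**
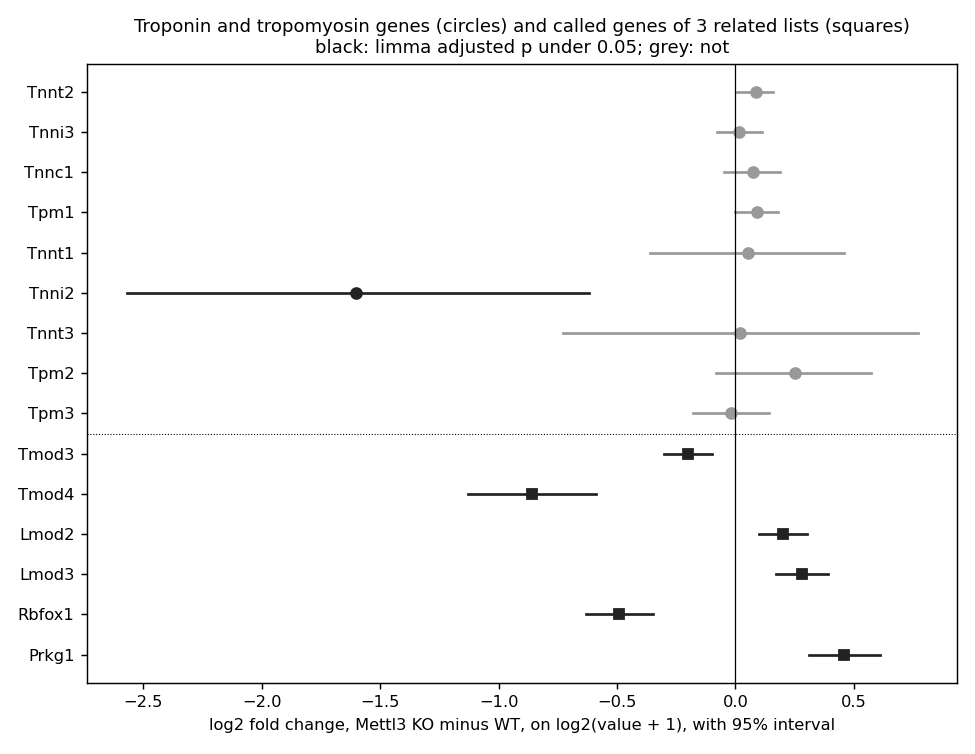
Log2 fold change between Mettl3 KO and WT hearts (horizontal axis, on log2(value + 1)) with its 95% interval from limma, for 9 of the 10 troponin and tropomyosin genes (circles, Tnni1 left out because both genotypes lay near the floor of 3 reads) and for the called genes of the lists of thin filament partners, splicing factors and troponin kinases (squares). Black marks an adjusted p under 0.05, and among the circles only Tnni2 is black, whose Mettl3 KO libraries lay under that floor and whose fitted fold depends on the pseudocount, while the adult cardiac genes lie within 0.016 to 0.090 with short intervals.

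How far these values can register a difference depends on a ceiling that duplicate removal sets. The reads were single-end and the authors kept 1 read for each start position, so a transcript can hold about as many reads in a library as it has bases. Per base of the longest coding transcript, the median of 15157 protein-coding genes held 0.0265 recovered reads, and the 99th percentile was 0.348. Tnni3 held 0.892 reads per base of its 912 bases and Tnnc1 0.842 of its 721 bases. Of all the coding genes 9 lay between 0.8 and 0.9, and they are abundant muscle genes: Myl3 at 0.895, Tnni3, Atp2a2, Pln, Myl2, Myh6, Actc1, Tnnc1 and Mb at 0.834. Tnnt2 held 2.34 reads per base of its 1200-base longest coding transcript and 0.363 per base of the 7752 bases that all its annotated exons cover, so its reads came from more positions than that transcript has. How many of its positions were full was not measured, so how far its values can register a difference is not known. Tpm1 held 0.520 reads per base of its 2890-base longest coding transcript and 0.232 per base of the 6485 bases of its annotated exons. It has 16 coding transcripts, and which of them its reads came from was not measured. Its distance from the ceiling is therefore not known. Tpm3 (0.0853), Tnnt1 (0.0445) and Tpm2 (0.0310) were far below the ceiling.

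**Figure D3:**
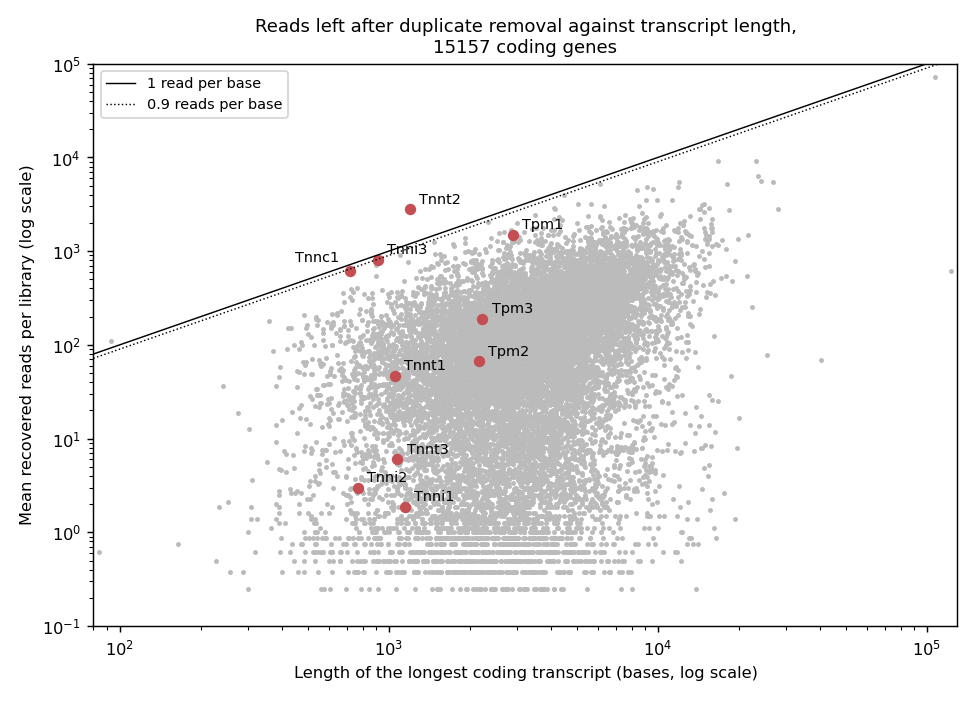
Mean number of recovered reads per library (vertical axis, log scale) against the length of the longest coding transcript in bases (horizontal axis, log scale) for 15157 protein-coding genes (grey) and the 10 troponin and tropomyosin genes (red), with lines at 1 and 0.9 reads per base. Tnni3 and Tnnc1 lie on the upper edge of the cloud, near 0.9 reads per base, Tnnt2 lies above the line at 2.34, and the skeletal genes lie far below it.

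An estimate of the reads before duplicate removal was made from the start positions taken on each longest coding transcript, with Tnnt2 left as counted. In it Tnni3 had a log2 fold change of -0.097 (95% interval -0.25 to 0.059, limma adjusted p = 0.524) in place of 0.016, so the sign turned and the interval widened. Tnnc1 had 0.089 (95% interval -0.10 to 0.28, limma adjusted p = 0.659) and Tpm1 0.10 (95% interval 0.0045 to 0.20, limma adjusted p = 0.214). The estimate of Tnni3 allows a fall to 0.839 of the WT level, a wider limit than the deposited values give. None of the adult cardiac genes was called in it.

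The values were also set against the scaling of the libraries. The number of value units that 1 read is worth ran from 0.9272 in WT library 2 to 1.1086 in Mettl3 KO library 1. Across the 8 libraries, the value of Tnnt2 had a Pearson r of 0.81 with that factor (exact permutation p = 0.0144, Spearman rho 0.90, exact permutation p = 0.00456), and 0.65 without the 2 libraries farthest from the median factor. Tpm1 had an r of 0.80 (exact permutation p = 0.0211, rho 0.81, exact permutation p = 0.0218), Tnnc1 0.71 (exact permutation p = 0.0518, rho 0.57, exact permutation p = 0.151) and Tnni3 0.68 (exact permutation p = 0.0644, rho 0.71, exact permutation p = 0.0595), and these were 0.81, 0.66 and 0.83 without the 2 libraries. The remaining members with a mean value of at least 20 had r of 0.66 (Tnnt1, exact permutation p = 0.0651, rho 0.31), 0.11 (Tpm3, exact permutation p = 0.787, rho 0.17) and -0.40 (Tpm2, exact permutation p = 0.338, rho -0.31). Without the 2 libraries these were 0.15, 0.65 and 0.10, so they rest on those libraries, and Tpm3 then had the same r as Tnnt2. Adjusted over these 7 genes, the lowest exact permutation p of r was 0.0740, for Tnnt2 and Tpm1, and that of rho was 0.0319 for Tnnt2 and 0.0762 for Tpm1, so the rank correlation of Tnnt2 alone passed 0.05. The part of the scaling in the differences between the genotypes was not tested.

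**Figure D4:**
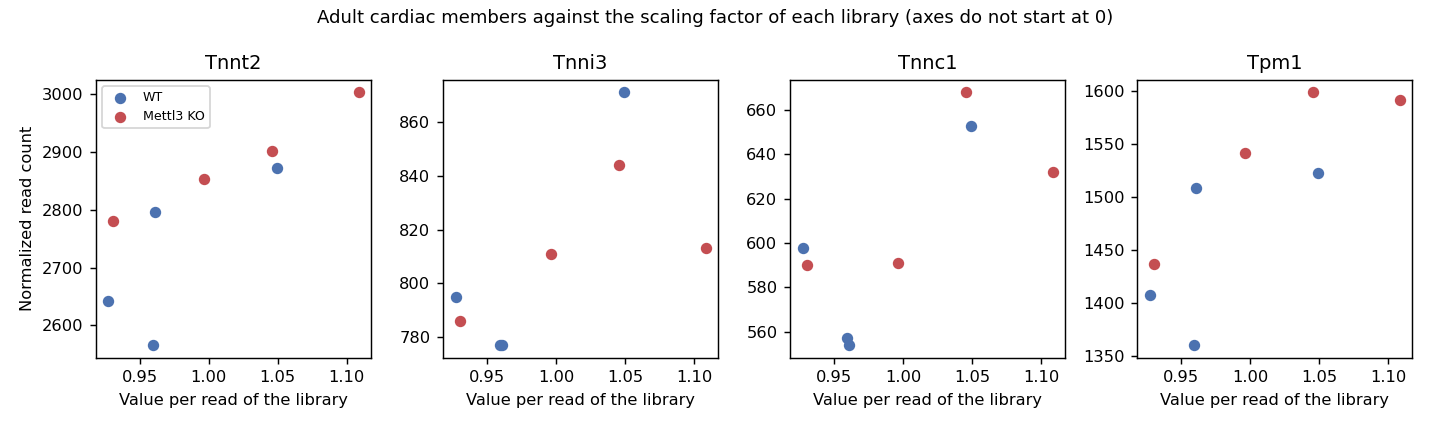
Normalized read count of Tnnt2, Tnni3, Tnnc1 and Tpm1 (vertical axes, which do not start at 0) against the value that 1 read is worth in each library (horizontal axis) in 4 WT (blue) and 4 Mettl3 KO (red) libraries. Libraries with a larger factor tend to have larger values of the 4 genes, with Pearson r of 0.68 to 0.81.

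Ratios within a library do not depend on its scaling, apart from rounding and the pseudocount, which weigh on genes near the floor. Of those examined none passed the test between the genotypes. The 9 ratios were compared on the log2 scale with a pseudocount of 1, by an exact permutation test over all 70 ways to assign the genotypes (two-sided), whose smallest possible p is 0.0286. Within the adult cardiac set, the value of Tpm1 was 53.3% ± 0.443 of that of Tnnt2 in WT and 53.5% ± 1.46 in Mettl3 KO libraries (mean ± SD, n = 4 each), a log2 difference of 0.0038 (exact permutation p = 0.886). Tnnc1 stood at 19.8% to 22.7% of Tnnt2 in WT and at 20.7% to 23.0% in Mettl3 KO libraries (exact permutation p = 0.771, n = 4 each). Tnni3 stood at 29.6% ± 1.23 and 28.2% ± 0.841 of Tnnt2, a log2 difference of -0.070 (exact permutation p = 0.114, n = 4 each). Both Tnni3 and Tnnc1 lay near the ceiling, which limits what their ratios to Tnnt2 can register, and in the estimate made from taken start positions the log2 fold change was -0.097 for Tnni3 and 0.088 for Tnnt2, itself not corrected. How near Tnnt2 and Tpm1 lay to the ceiling is not known, which also bears on the ratio of Tpm1 to Tnnt2. Of the 9 ratios 0 had an exact p under 0.05, and the lowest adjusted over the 9 was 0.429. With this many libraries 1 ratio alone could not fall below an adjusted exact p of 0.257, so the adjusted values say little, and leaving out 1 library left no ratio testable at 0.05.

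Neither gene of the slow skeletal, or fetal, set was called. Tnni1 (ENSMUSG00000026418, mm39 chromosome 1, 135707172 to 135738727, plus strand), the slow skeletal troponin I that the fetal heart uses, had values of 4, 3, 1 and 2 in WT libraries 1 to 4 and of 0, 1, 3 and 1 in Mettl3 KO libraries 1 to 4. In 7 of the 8 libraries these stood for 3 reads or fewer, so no fold between the means of the libraries is given. Pooled, it had 10 reads in WT and 5 in Mettl3 KO libraries, a ratio of 0.519 with an exact 95% interval of 0.139 to 1.67 for counting error only, so a rise above 1.67 of the WT level lies outside what the pooled reads allow. Its adjusted p in limma was 0.470.

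Tnnt1 (ENSMUSG00000064179, mm39 chromosome 7, 4507569 to 4519381, minus strand) encodes slow skeletal troponin T. It had values of 42, 46, 49 and 43 in WT libraries 1 to 4 and of 80, 34, 48 and 36 in Mettl3 KO libraries 1 to 4, or 45.0 ± 3.16 and 49.5 ± 21.3 (mean ± SD, n = 4 each). Mettl3 KO library 1 was the highest of the 8, and Mettl3 KO libraries 2 and 4 were the lowest. The log2 fold change was 0.052 (95% interval -0.36 to 0.46, SE 0.20, adjusted p in limma 0.930), and without Mettl3 KO library 1 it was -0.20 (limma adjusted p = 0.535). Its value was 1.66% ± 0.200 of that of Tnnt2 in WT and 1.70% ± 0.672 in Mettl3 KO libraries (exact permutation p = 0.943, n = 4 each).

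Of the fast skeletal genes, Tnni2 (ENSMUSG00000031097, mm39 chromosome 7, 141995545 to 141998147, plus strand) was the only member called. It encodes fast skeletal troponin I. Its values were 6, 5, 7 and 2 in WT libraries 1 to 4 and 1, 0, 2 and 1 in Mettl3 KO libraries 1 to 4, or 5.00 ± 2.16 and 1.00 ± 0.816 (mean ± SD, n = 4 each). All Mettl3 KO libraries and WT library 4 stood at 3 reads or fewer, the genotypes met at a value of 2, and the mean of each genotype reached the filter. Mettl3 KO and WT hearts differed by a log2 fold change of -1.60 (95% interval -2.57 to -0.62, SE 0.47, adjusted p in limma 0.0381). Pooled, 20 reads in WT and 4 in Mettl3 KO libraries gave a ratio of 0.208, with an exact 95% interval of 0.0516 to 0.620 for counting error only. The gene was called in 9 of 18 alternative settings, over which the adjusted p ran from 0.0239 to 0.120 and the log2 fold change from -1.98 (limma voom) to -0.72 (pseudocount of 5), so the fitted fold is no bound. Among the settings without the call were the omission of any 1 of WT libraries 1, 2 and 3 or of Mettl3 KO libraries 1, 2 and 4, where the adjusted p was 0.0506 to 0.120. Its value was 0.633% ± 0.291 of that of Tnni3 in WT and 0.122% ± 0.0968 in Mettl3 KO libraries (exact permutation p = 0.0571, n = 4 each, adjusted over the 9 ratios 0.429).

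Tnnt3 (ENSMUSG00000061723, mm39 chromosome 7, 142052573 to 142069746, plus strand), the fast skeletal troponin T gene that lies 54.4 kb from Tnni2 on the same strand, was not called. Its values were 3, 6, 10 and 6 in WT libraries 1 to 4 and 8, 6, 5 and 5 in Mettl3 KO libraries 1 to 4, or 6.25 ± 2.87 and 6.00 ± 1.41 (mean ± SD, n = 4 each). The Mettl3 KO values lay within the WT range. This gave a log2 fold change of 0.018 (95% interval -0.73 to 0.77, SE 0.36, adjusted p in limma 0.992), and its sign turned with a pseudocount of 5. Of 10 other fast skeletal muscle markers 0 were called by limma or by limma voom, and 1, Atp2a1, had an unadjusted p under 0.05 in limma. Their summed level was 176 to 260 in WT and 128 to 250 in Mettl3 KO libraries. Myh4, the fast myosin heavy chain, had values of 2 to 6 over the 8 libraries, and Mylpf, the fast regulatory light chain, 1 to 7.

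In genome order the troponin I and T genes form 3 pairs. Tnni1 lies 25.4 kb before Tnnt2 on chromosome 1, at values of 0 to 4 beside 2566 to 3003. Tnnt1 and Tnni3 lie 1.9 kb apart on the minus strand of chromosome 7, at 34 to 80 beside 777 to 871. Tnni2 and Tnnt3, the third pair, were both near the floor, and Tnni2 alone was called.

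The other tropomyosin genes differed in how they varied. Tpm2 (ENSMUSG00000028464, mm39 chromosome 4, 43514711 to 43523765, minus strand) encodes β-tropomyosin, a form of skeletal and smooth muscle. Its values were 61, 57, 63 and 59 in WT libraries 1 to 4 and 50, 63, 81 and 101 in Mettl3 KO libraries 1 to 4, or 60.0 ± 2.58 and 73.8 ± 22.2 (mean ± SD, n = 4 each). The WT libraries were close together, while the Mettl3 KO libraries held both the lowest value and the highest. On the log2(value + 1) scale the difference was 0.25 (95% interval -0.081 to 0.57, SE 0.16, adjusted p in limma 0.422). It was 0.080 without Mettl3 KO library 4 and 0.41 without Mettl3 KO library 1, and over all 19 alternatives the adjusted p ran from 0.0726 to 0.845.

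Markers of other cell types also varied between the Mettl3 KO libraries. Myl7, the atrial regulatory light chain, had 23, 65, 90 and 119 in Mettl3 KO libraries 1 to 4 and 0 to 26 in WT libraries, and Tagln of smooth muscle had 37, 52, 59 and 56 and 33 to 42. After removal of each genotype's mean, Tpm2 had a Pearson r of 0.79 with Tagln, 0.51 with Myh11 and 0.28 with Myl7 over the 8 libraries, on log2(value + 1). The r with Myl7 rests on single libraries. It was 0.95 without WT library 3, where Myl7 was listed at 0, and -0.01 without Mettl3 KO library 1. Without Mettl3 KO library 1, the r with Tagln and Myh11 fell to 0.41 and -0.23. The points share libraries and their scaling, and the genes were chosen with the values in view. Of the smooth muscle markers, only Tagln and Myh11 were set against Tpm2. The summed level of 6 smooth muscle markers was 1216 to 1425 in WT and 1276 to 1431 in Mettl3 KO libraries, and 1 of the 6, Notch3, was called, lower. The part of these cells in the values of Tpm2 was not tested.

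Tpm3 (ENSMUSG00000027940, mm39 chromosome 3, 89979956 to 90008209, plus strand) encodes the tropomyosin of slow skeletal muscle and, from other transcripts, cytoskeletal forms made in most cells. Its values were 174, 186, 196 and 206 in WT libraries 1 to 4 and 174, 191, 203 and 184 in Mettl3 KO libraries 1 to 4, or 190 ± 13.7 and 188 ± 12.2 (mean ± SD, n = 4 each). The Mettl3 KO values lay within the WT range. The log2 fold change was -0.018 (95% interval -0.18 to 0.14, SE 0.075, adjusted p in limma 0.935). Of the distinct 72-base stretches of its transcripts 19.6% also occur in other genes, mainly in the copy Tpm3-rs7, which had values of 0 to 2, so the value of Tpm3 is uncertain to the extent that such reads were dropped as multi-mapping. Relative to Tpm1, Tpm3 stood at 13.2% ± 1.21 in WT and 12.2% ± 0.868 in Mettl3 KO libraries (exact permutation p = 0.286), and Tpm2 at 4.15% ± 0.332 and 4.83% ± 1.66 (exact permutation p = 0.543, n = 4 each). The log2 difference of the ratio of Tpm2 to Tpm1 was 0.16, and was -0.043 without Mettl3 KO library 4 and 0.34 without Mettl3 KO library 1.

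The genes outside the adult cardiac set were also read as shares of their families. Tnni1 and Tnni2 made up 1.27%, 0.996%, 1.02% and 0.457% of the troponin I values in WT libraries 1 to 4 and 0.123%, 0.123%, 0.589% and 0.254% in Mettl3 KO libraries 1 to 4. Mettl3 KO library 3 lay above WT library 4, so the genotypes overlapped. Tnnt1 and Tnnt3 made up 1.86% ± 0.297 of the troponin T values in WT and 1.87% ± 0.676 in Mettl3 KO libraries, and Tpm2 and Tpm3 14.8% ± 1.03 and 14.5% ± 1.77 of the summed values of Tpm1, Tpm2 and Tpm3 (mean ± SD, n = 4 each). With Tpm4, a tropomyosin gene of non-muscle and smooth muscle cells that had 494 to 568 in WT and 477 to 542 in Mettl3 KO libraries, the share outside Tpm1 was 35.2% ± 1.87 and 33.1% ± 1.98 (mean ± SD, n = 4 each). These shares are of values not corrected for length and are given with no test. Without single libraries the difference in the share of Tpm2 and Tpm3 among Tpm1 to Tpm3 ran from -0.902 (without Mettl3 KO library 4) to 0.503 (without Mettl3 KO library 1) percentage points, and that of the troponin T share from -0.316 (without Mettl3 KO library 1) to 0.172.

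**Figure D5:**
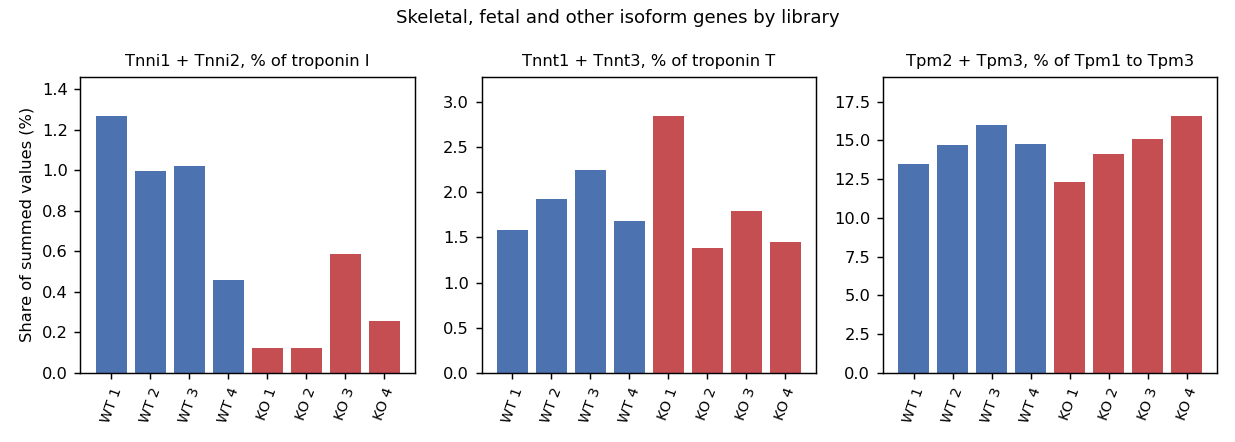
Share (vertical axis, percent, from 0, a scale of its own in each panel) of the summed values of Tnni1 and Tnni2 among troponin I genes, of Tnnt1 and Tnnt3 among troponin T genes and of Tpm2 and Tpm3 among Tpm1, Tpm2 and Tpm3, in each of 4 WT (blue) and 4 Mettl3 KO (red) libraries. The troponin I share is at most 1.27% in any library, the troponin T share is highest in Mettl3 KO library 1 at 2.85%, and the tropomyosin share runs from 12.3% to 16.6%.

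Set against transcript length, the order of the genes within WT hearts was read as value per kb of the longest coding transcript. Tnnt2 was highest at 2266 ± 117 per kb, followed by Tnni3 at 883 ± 49.1 and Tnnc1 at 819 ± 64.1, whose ranges overlapped, and by Tpm1 at 502 ± 27.4 (mean ± SD, n = 4). Tpm3 stood at 85.3 ± 6.13, Tnnt1 at 42.5 ± 2.99 and Tpm2 at 27.6 ± 1.19, with no overlap between them. Tnni2 at 6.51 ± 2.81, Tnnt3 at 5.79 ± 2.66 and Tnni1 at 2.17 ± 1.12 overlapped. Per kb of all annotated exons the order of the leading genes was another, Tnnc1 at 567, Tnni3 at 390 and Tnnt2 at 351, and Tpm2 at 20.6 and Tnnt1 at 20.4 then overlapped. The ceiling on reads per position bears on Tnni3 and Tnnc1 in both orders, and may bear on Tnnt2 and Tpm1.

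Among the members with a mean value of at least 50, likeness between libraries was measured as Pearson r of log2(value + 1) over the 8 libraries after removal of each genotype's mean. Tnnt2 and Tpm1 varied together (r = 0.93), as did Tnni3 and Tnnc1 (r = 0.93), while r between these pairs was 0.58 to 0.65. Tpm2 had an r of -0.48 with both Tnnt2 and Tpm1. The points share the scaling of their libraries.

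Of 9307 other genes, those most like Tnnt2 were Psmc2 (r = 0.970), Jtb (0.961) and Snx4 (0.957), and those most like Tpm1 were Rack1 (0.988), Jtb (0.972) and Psmc2 (0.967). Tnni3 was most like Myom1 (0.987), Harbi1 (0.971) and Csrp3 (0.965), of which Myom1 encodes a protein of the sarcomere's M-band and Csrp3 the muscle LIM protein. Tnnc1 was most like Tapbp (0.989), Zscan21 (0.987) and Drap1 (0.979), Tpm2 like Fbxo38 (0.978), Map3k7 (0.977) and Cnot3 (0.966), and Tpm3 like Vps4a (0.968), Twf2 (0.962) and Cyria (0.957). With 8 libraries and this many genes, such values are a description only.

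Of 12 other genes of the thin filament, 11 were tested and 4 were called, 2 higher and 2 lower, where 7.91% of all genes tested were called. Their median log2 fold change was 0.095, against -0.01 over all genes. With reads corrected for taken start positions 5 were called, Actc1 (0.16, limma adjusted p = 0.0416) being the one added. Tmod4, a tropomodulin that caps the pointed end of the thin filament in skeletal muscle, fell. Its values were 78, 76, 83 and 90 in WT libraries 1 to 4 and 38, 49, 53 and 40 in Mettl3 KO libraries 1 to 4, 55.0% of the WT mean, with no overlap. Mettl3 KO and WT hearts differed by a log2 fold change of -0.86 (adjusted p in limma 1.56e-04, SE 0.13). Tmod3, the tropomodulin of many cell types, had 515 to 558 in WT and 453 to 489 in Mettl3 KO libraries and fell by 0.20 on the log2 scale (adjusted p in limma 0.0136, SE 0.050).

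The leiomodins Lmod2 and Lmod3, which nucleate and lengthen thin filaments, were called higher. Lmod3 had 392, 427, 403 and 428 in WT libraries 1 to 4 and 492, 477, 529 and 501 in Mettl3 KO libraries 1 to 4, which did not overlap, and rose by 0.28 on the log2 scale (adjusted p in limma 0.00173, SE 0.053). Lmod2, the leiomodin of the heart, had 882, 935, 897 and 993 and then 1099, 1051, 1110 and 990, which overlapped at 1 library of each genotype, and rose by 0.20 (adjusted p in limma 0.0109, SE 0.047). Tmod4 and Lmod3 were called in all 19 alternatives. Tmod3 and Lmod2 were each called in 17 of 19, and each lost the call without WT library 1 (adjusted p = 0.0522 and 0.0523) and without Mettl3 KO library 3 (0.0604 and 0.0613). Of the remaining partners, Tmod1, the capping protein of cardiac muscle, had a log2 fold change of 0.071 (limma adjusted p = 0.410), Tmod2, the tropomodulin of neurons, 0.21 (0.293), Actc1, cardiac actin, which lay near the ceiling at 0.846 reads per base, 0.095 (0.269), Tpm4 -0.10 (0.323), and Acta1, skeletal actin, 0.28 (0.199).

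Lists of regulators of the members' pre-mRNA and of their phosphorylation held 1 called gene each of 10 tested, a share near the 7.91% called over all genes, so the counts are no result about these lists. Among 10 splicing factors known to act on troponin T or tropomyosin pre-mRNA (median log2 fold change -0.0072), Rbfox1 was called. It had 313, 273, 311 and 281 in WT libraries 1 to 4 and 206, 202, 211 and 218 in Mettl3 KO libraries 1 to 4, and fell by 0.49 on the log2 scale (adjusted p in limma 4.19e-05, SE 0.066). Mbnl1 (0.0057, limma adjusted p = 0.957) and Rbm20 (0.0090, limma adjusted p = 0.935) were not called. Values per gene say nothing of which exons of Tnnt2 or Tpm1 were used.

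Among 10 kinases, phosphatase parts and interactors of troponin (median 0.012), Prkg1 was called. It encodes the cGMP-dependent kinase I, which can phosphorylate troponin I and is also abundant in smooth muscle. It had 184, 209, 224 and 207 in WT libraries 1 to 4 and 286, 257, 284 and 306 in Mettl3 KO libraries 1 to 4, which did not overlap. It rose by 0.46 on the log2 scale (adjusted p in limma 2.55e-04, SE 0.073). Tnni3k, a cardiac kinase that binds troponin I, had 0.034 (limma adjusted p = 0.773). Rbfox1 and Prkg1 were called in all 19 alternatives.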

How the data were processed

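Stranded libraries of total heart RNA were read from one end over 72 bases. According to the submitters' processing notes and the paper's methods, trimming by the authors used Trimmomatic 0.39, and they aligned the reads to mm39 with STAR 2.7.11a, removed duplicates (Picard 3.1.1) and multi-mapping reads, counted reads over exons with featureCounts 2.0.4 and normalized with DESeq2 1.36.0. The deposited values are a score: normalized counts rounded to whole numbers, so tools for raw counts were not run. Reads were recovered by finding, for each library, the factor that explains the spacing of its low values. In a test on simulated data the largest error of the factor was 0.00474.

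The labels gave the group and replicate number of each of the 8 columns. The 20313 genes whose mean value reached 1 entered a limma fit (3.58.1, R 4.3.3) of log2(value + 1) on genotype alone, with the variance allowed to follow the mean. Tests were two-sided, p was adjusted by Benjamini-Hochberg, and the threshold was 0.05. A fold change on this scale understates the change of low genes. On simulated data with 200 of 20225 genes changed by 1 on the log2 scale, the fit recovered 62.5%, 95.7% of the 117 whose mean value reached 20, and made 1 false call. The simulation gave all genes the same fixed spread beyond counting error and set no ceiling on reads. Its rates therefore say little about widely spread genes such as Tnnt1 and Tpm2. They also say little about differences as small as those of the adult cardiac genes. Lengths and coding sequences came from GENCODE M21 (GRCm38), and locations from the deposited table (mm39). To allow for start positions taken, reads were replaced by minus the length times the natural log of the free share of positions, and rescaled. Genes that reached 0.98 reads per base in any library, among them Tnnt2, and genes without a length were left as counted. This alternative was chosen after seeing the data.

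The members and gene lists were chosen with earlier results of these data known. Named genes were the members, the called genes of the 3 lists, and the 3 genes most like each member with a mean value of at least 50. Tnnc2, Tmod1, Tmod2, Actc1, Tpm4, Acta1, Mbnl1, Rbm20, Tnni3k, Tpm3-rs7, the genes with 0.8 or more reads per base and single markers were named beyond that rule, after their values were seen. The other settings tried were 3 scalings, limma voom, 2 filters and 2 pseudocounts, a replicate block, and the omission of each library. Analyses used Python 3.11.15 with scipy 1.17.1.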

Additional observations from a re-analysis of the deposited data

How the results depend on the processing

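The count of called members was 1 as reported and 0 with limma voom on the deposited values or on recovered reads, with a mean of at least 10 (which left Tnni2 untested) and with the replicate block, and it was 0 to 1 with each library left out. For Tnni2 the adjusted p was 0.0657 and 0.0635 in the voom fits. Without single libraries the log2 fold change was 0.059 to 0.11 for Tnnt2, 0.060 to 0.12 for Tpm1 and 0.036 to 0.12 for Tnnc1. The log2 ratio of Tnni2 to Tnni3 was -0.73 with a pseudocount of 5. Tnni3 had a log2 fold change of -0.0030 with equal upper quartiles, -0.097 after correction for taken start positions, and -0.0015 to 0.055 with each library left out. Tnnt3 had -0.0055 with a pseudocount of 5 and -0.24 to 0.25 with each library left out, Tnnt1 -0.20 to 0.20 and Tpm3 -0.061 to 0.020. The cause of these shifts was not tested.

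With each library left out, 2 to 5 thin filament partners and 1019 to 1596 genes in all were called, the lowest being those without WT library 1 for the partners and without Mettl3 KO library 3 for all genes. The replicate numbers did not pair the libraries: same-numbered libraries had correlations of -0.0414 to 0.0878, and the replicate block called 1346 genes and ended, among the members and the 6 called genes of the lists, the call of Tnni2 alone (limma adjusted p = 0.0514). With 4 pairs the exact sign-flip test of a ratio cannot give a p below 0.125. In the 32 groups searched (the 10 members and the 6 called genes of the lists, 16 genes in all, by genotype), 0 libraries stood apart, where chance gives 1.60. Over the 43 markers a library stood apart in 6 of 85 groups, where chance gives 4.25, and in 3 it was WT library 3: Myl4 (17, others 110 to 114), Myl1 (63, others 12 to 16) and Ryr2 (10427, others 9666 to 9731). Depth limits Tnni1, Tnni2 and Tnnt3, whose values stand for 0 to 10 reads a library.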
